A study of Mus musculus with 11 samples.

Results

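Wfdc2, Muc16, Folr1, Msln, Muc1, Mecom and Cd24a are the mouse counterparts of genes whose products are measured in blood, targeted by drugs or amplified in human high-grade serous ovarian cancer (HG-SOC). These 7 genes are a list of symbols chosen for their clinical use. No value was a criterion, but earlier results of these data were known when they were chosen. Their counts were followed through all 27 RNA libraries of a mouse organoid model of HG-SOC. Of the 18305 genes with counts, 6 were members of this set. Muc16 was not analysed here. The model starts from the 2 candidate tissues of origin of the cancer, the oviduct (the murine fallopian tube) and the ovarian surface epithelium (OSE), and from organoids, which are cystic cultures grown in basement membrane extract.

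The tissue libraries were 3 of bulk oviduct and 3 of bulk OSE from wild-type C57BL/6 females aged 8 to 12 weeks. Wild-type organoids gave 3 libraries of oviductal lines and 2 of OSE lines, another OSE line having been left out by the authors for contamination. The Cas9-GFP organoids were 3 libraries of oviductal lines from females of the same age range on a mixed B6 and 129 background, which express Cas9 and EGFP from the Rosa26 locus under the CAG promoter. The TBP clones were 3 libraries of single-cell clones made from such organoids with guides against Trp53, Brca1 and a further tumor suppressor gene, under selection with Nutlin-3a. The 6 TBP tumors grew under the skin of immunodeficient NSG mice, which lack lymphocytes but supply stroma, vessels and myeloid cells, so that a tumor library mixes grafted and host RNA. Each mouse received the same clone in both flanks, and the labels do not say which tumors share a mouse or a clone. Organoid lines from TBP tumors, kept in Nutlin-3a, gave T1-mes and T3-mes from tumors of mixed epithelial and mesenchymal appearance, and T2-epi and T4-epi from glandular tumors. T1-mes and T2-epi came from adjacent tumors of the same clone in the same animal. Wild-type and Cas9-GFP libraries of a group came from separate tissue samples or lines. The sources used here do not say whether the 3 TBP clone libraries are of 3 different clones.

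The genes fall into 3 kinds by the place of their products. Wfdc2 encodes the secreted whey acidic protein known as HE4, a serum marker of ovarian cancer. Muc1 encodes a membrane mucin of the apical face of glandular epithelium, and Muc16 the mucin that carries the CA125 antigen. Cd24a, Msln and Folr1 encode proteins held on the cell surface by a glycosylphosphatidylinositol (GPI) anchor: a small sialoglycoprotein of immature and epithelial cells, the mesothelial adhesion protein mesothelin, and the high-affinity folate receptor alpha. Mecom encodes a zinc finger transcription factor of the PRDM family (EVI1 and MDS1-EVI1), which lies in a segment often amplified in HG-SOC.

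In GRCm38 with the GENCODE vM21 annotation, each of the 7 is a protein-coding gene. Wfdc2 spans chr2:164562413-164568510 on the plus strand, Muc1 chr3:89229057-89233381 on the plus strand and Mecom chr3:29951296-30548008 on the minus strand. Cd24a spans chr10:43578284-43584265 on the plus strand, Msln chr17:25748613-25754378 on the minus strand and Folr1 chr7:101858331-101870788 on the minus strand. Promoters are shown for the 3 genes that had the lowest levels in OSE tissue, and for which RefSeq (GRCm38.p6) gave a sequence in the table used: Wfdc2 and Muc1, whose levels moved together across groups, and Mecom, whose levels did not follow theirs in the tumors. Each runs 5′ to 3′ on the gene's own strand, from 250 bases before a transcript start to 50 after it. The windows are chr2:164562465-164562764 for Wfdc2, chr3:89228806-89229105 for Muc1, and chr3:30509710-30510009 and chr3:30013155-30013454 for the upstream and downstream starts of Mecom. Capitals mark the E-box that EMT repressors such as ZEB and SNAIL proteins are known to bind (CAGGTG, or CACCTG read on the other strand) and the GC box bound by SP factors (GGGCGG, or CCGCCC on the other strand), and no marked matches overlap.
Wfdc2: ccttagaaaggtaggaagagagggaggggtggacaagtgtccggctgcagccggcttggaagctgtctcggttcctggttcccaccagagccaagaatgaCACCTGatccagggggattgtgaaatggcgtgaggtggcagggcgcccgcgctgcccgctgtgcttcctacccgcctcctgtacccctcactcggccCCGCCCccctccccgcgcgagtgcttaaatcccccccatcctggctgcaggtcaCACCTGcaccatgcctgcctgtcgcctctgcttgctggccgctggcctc
Muc1: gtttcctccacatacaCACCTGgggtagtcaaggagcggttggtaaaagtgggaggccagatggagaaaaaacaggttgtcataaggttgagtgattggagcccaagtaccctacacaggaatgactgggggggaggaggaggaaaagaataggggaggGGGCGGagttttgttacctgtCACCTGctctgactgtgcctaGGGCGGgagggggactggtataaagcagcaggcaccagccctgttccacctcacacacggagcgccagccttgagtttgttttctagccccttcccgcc
Mecom upstream start: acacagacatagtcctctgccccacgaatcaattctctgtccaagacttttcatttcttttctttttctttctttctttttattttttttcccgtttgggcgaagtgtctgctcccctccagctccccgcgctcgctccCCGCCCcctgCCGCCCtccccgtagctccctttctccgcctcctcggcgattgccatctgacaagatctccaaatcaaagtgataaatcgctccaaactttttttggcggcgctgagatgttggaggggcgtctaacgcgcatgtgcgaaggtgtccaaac
Mecom downstream start: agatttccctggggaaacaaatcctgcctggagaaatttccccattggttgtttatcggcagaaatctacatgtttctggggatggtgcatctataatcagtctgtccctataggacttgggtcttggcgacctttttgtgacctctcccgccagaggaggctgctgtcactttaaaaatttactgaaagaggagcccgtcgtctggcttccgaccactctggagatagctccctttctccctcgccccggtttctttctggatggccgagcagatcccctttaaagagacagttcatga

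The Wfdc2 window held 2 E-boxes and 1 GC box, and the Muc1 window 2 E-boxes and 2 GC boxes. The upstream window of Mecom held 2 GC boxes and no E-box, and the downstream window held neither. Of all 32851 promoter windows of this length, 20.2% held at least 1 such E-box and 35.7% at least 1 GC box. A TATAAA stretch stood in the Muc1 window, as in 13.6% of all windows (either strand). The GC content was 65.3% for Wfdc2, 55.7% for Muc1, and 52% and 49.7% for the windows of Mecom. These matches describe the letters and no binding was measured.

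RNA was measured by CEL-Seq2, which reads the tagged 3′ end of transcripts. Levels are given as CPM, the counts of a gene scaled to a common library size, that is per 1000000 counts of a library's total after TMM scaling, a correction for differences in RNA composition, over all 27 libraries. Total counts were lowest in TBP clone 1 (82239) and highest in TBP clone 3 (4531767). A gene with 0 counts could therefore have had up to 34.1 CPM in clone 1 but 0.67 CPM in clone 3, by counting error alone (3 counts). Trp53, the check of the clone labels, had 0, 0.535 and 4.91 CPM in the clones against 34.8 to 61.1 CPM in Cas9-GFP organoids. The epithelial genes Epcam, Cdh1, Krt7, Krt8, Krt18 and Krt19 summed to 1714 to 2140 CPM in oviduct tissue and 439 to 538 CPM in OSE tissue. Both tissues were mixed: fibroblast markers (6 of 6 with counts) summed to 3966 to 7202 CPM in oviduct and 1688 to 3224 CPM in OSE tissue. OSE tissue also held granulosa markers at 3374 to 4074 CPM and steroidogenic markers at 6196 to 7510 CPM, against 678 to 778 CPM for the mesothelial and OSE markers. In the OSE organoids the latter summed to 326 CPM in line 1 (3 of 6 with counts) and 153 CPM in line 2 (5 of 6), and in oviductal organoids to 152 to 173 CPM (at most 2 of 6). Oviductal secretory markers summed to 770 CPM in OSE line 1 and 3698 CPM in line 2, and to 76.8 to 130 CPM in OSE tissue. Their sums were 15213 to 23149 CPM in wild-type oviductal and 551 to 679 CPM in Cas9-GFP organoids. In bulk samples, fewer cells of a type and less RNA per cell cannot be told apart.

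**Figure D1:**
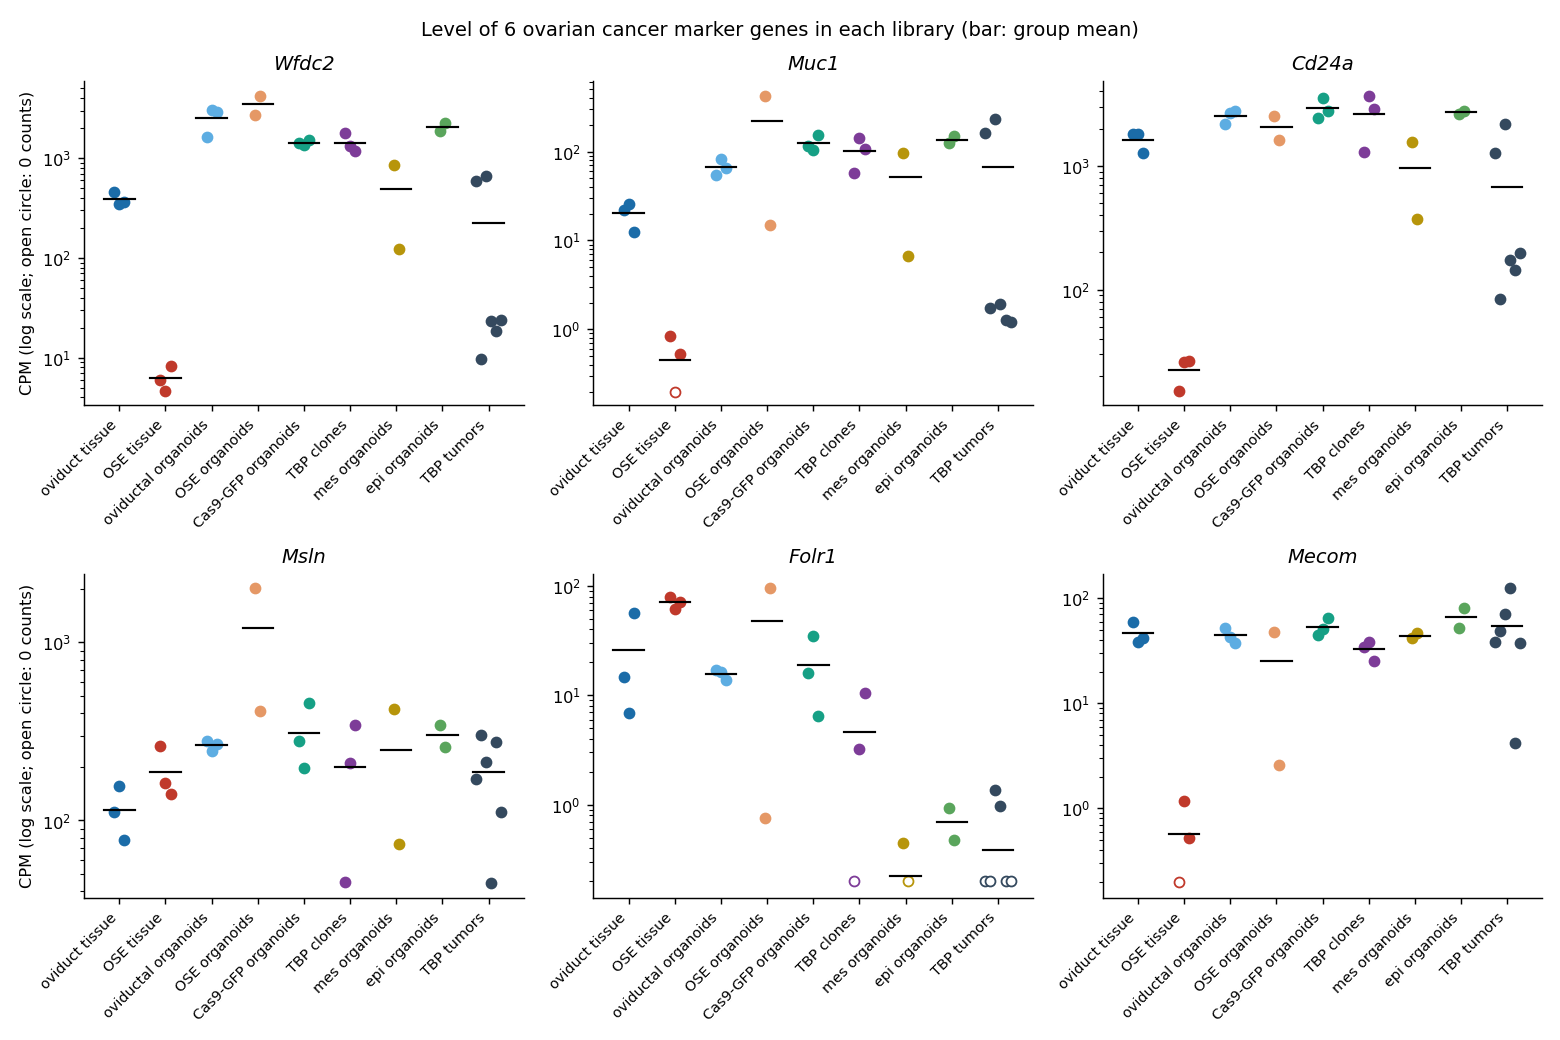
CPM (log scale) of each marker gene in each of the 27 libraries, by group. Points are libraries, bars are group means and open circles are libraries with 0 counts. Wfdc2, Muc1, Cd24a and Mecom sit lowest in OSE tissue, the OSE organoid lines lie far apart for Muc1, Msln, Folr1 and Mecom, and tumors 1 and 3 stand above the other 4 tumors for Wfdc2, Muc1 and Cd24a.

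Wfdc2 was strongly expressed in oviduct and in the wild-type and mutant cultures other than T3-mes (124 CPM), and was low in OSE tissue. Oviduct tissue had 457, 348 and 360 CPM, and OSE tissue 5.96, 4.69 and 8.36 CPM. The groups did not overlap, and Wfdc2 was 56.4-fold higher in oviduct (log2 fold change 5.82 ± 0.24 SE, edgeR adjusted p = 1.74e-10). In culture it was higher than in the tissue for both origins. Oviductal organoids had 1642, 3022 and 2933 CPM, a rise of 6.57-fold over oviduct tissue (log2 2.72 ± 0.25 SE, edgeR adjusted p = 4.89e-06). OSE organoids had 2736 and 4219 CPM, a rise of 532-fold over OSE tissue (log2 9.06 ± 0.42 SE, edgeR adjusted p = 0.000328). The organoids of the 2 origins overlapped (edgeR adjusted p = 0.71).

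Cas9-GFP organoids had 1419, 1355 and 1531 CPM of Wfdc2, all below the wild-type oviductal lines (log2 -0.80 ± 0.22 SE, edgeR adjusted p = 0.0197). This call was lost without any 1 of oviductal organoids 2, oviductal organoids 3, Cas9-GFP organoids 1 or Cas9-GFP organoids 2 (edgeR adjusted p from 0.0595 to 0.0709). TBP clones had 1783, 1320 and 1179 CPM, on either side of the Cas9-GFP values (log2 0.03 ± 0.34 SE, edgeR adjusted p = 0.99). T2-epi had 1878 and T4-epi 2245 CPM, T1-mes 858 and T3-mes 124 CPM. The tumors fell into a high pair and 4 low libraries, with 590 CPM in tumor 1, 668 in tumor 3, and 9.65, 23.2, 18.7 and 23.8 in tumors 2, 4, 5 and 6. Every tumor was below every clone, yet the difference did not pass the test over all genes (log2 -2.65 ± 1.19 SE, edgeR adjusted p = 0.109). Without tumor 3 it was -3.43, with an edgeR adjusted p of 0.0455.

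Muc1, the membrane mucin, was likewise lowest in OSE tissue and higher in culture. Oviduct tissue had 21.9, 26 and 12.5 CPM, while OSE tissue had 0.852, 0 and 0.522 CPM, which is 2 counts in all. The ratio of oviduct to OSE tissue was 40.1 (exact 95% interval 10.6 to 339, counting error only), and the groups did not overlap (edgeR adjusted p = 3.96e-06). Oviductal organoids had 53.8, 82.3 and 65.1 CPM, 3.31-fold above the tissue (log2 1.73 ± 0.29 SE, edgeR adjusted p = 0.000496), a difference of -0.04 when scaled to the epithelial genes (adjusted p = 0.913). The OSE lines lay far apart, with 423 CPM in line 1 and 14.8 CPM in line 2. Together they stood above OSE tissue at a ratio of 354 (exact 95% interval 97.5 to 2928, counting error only; log2 8.53, edgeR adjusted p = 0.00876), to which line 1 gave most counts. Without line 1 the log2 difference was 4.71. Line 1 was above, and line 2 below, all 3 oviductal lines, and the fitted difference between origins in culture changed sign with the line left out: 2.17 without line 1 and -2.65 without line 2. That call between tissue and culture was lost without OSE tissue 1 (edgeR adjusted p = 0.0566) or OSE tissue 3 (0.0585).

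Cas9-GFP organoids had 115, 104 and 155 CPM of Muc1, above the 3 wild-type oviductal lines (log2 0.93 ± 0.23 SE, edgeR adjusted p = 0.0112). Without Cas9-GFP organoids 3 the difference was 0.75, with an edgeR adjusted p of 0.0579. The clones had 56.8, 143 and 108 CPM and did not differ from them beyond the spread (edgeR adjusted p = 0.926), the lowest value coming from the shallow clone 1. Tumors 1 and 3 had 160 and 235 CPM, the highest values in the oviductal lineage. Tumors 2, 4, 5 and 6 had 1.75, 1.93, 1.29 and 1.22 CPM. T1-mes had 97.3, T3-mes 6.6, T2-epi 125 and T4-epi 148 CPM.

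Cd24a separated the tissues of origin as sharply. Oviduct tissue had 1809, 1809 and 1284 CPM and OSE tissue 15.3, 25.8 and 26.6 CPM, a 70.9-fold difference (log2 6.15 ± 0.25 SE, edgeR adjusted p = 1.74e-10). OSE organoids reached 2538 and 1607 CPM, 92.4-fold above OSE tissue (log2 6.53 ± 0.39 SE, edgeR adjusted p = 0.000351). Oviductal organoids had 2179, 2701 and 2789 CPM, 1.58-fold above oviduct tissue (log2 0.66 ± 0.18 SE, edgeR adjusted p = 0.0123), a sign that turned when counts were scaled to the epithelial genes (log2 -1.12, edgeR adjusted p = 0.000289). Cas9-GFP organoids had 2458, 3524 and 2775 CPM and clones 1294, 3691 and 2861 CPM, which overlapped (edgeR adjusted p = 0.949). Tumors 1 and 3 had 1274 and 2164 CPM, and tumors 2, 4, 5 and 6 had 84.2, 174, 145 and 197 CPM. The difference of tumors from clones was -1.98 ± 0.93 SE on the log2 scale and did not pass the test (edgeR adjusted p = 0.126), but did without tumor 3 (-2.85, adjusted p = 0.0202).

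Msln, which encodes mesothelin, was with Folr1 a member higher in OSE tissue than in oviduct. OSE tissue had 263, 162 and 140 CPM and oviduct tissue 111, 156 and 77.7 CPM. These ranges overlapped, and the difference was 1.65-fold (log2 -0.73 ± 0.26 SE, edgeR adjusted p = 0.028). It was lost without oviduct tissue 1, oviduct tissue 3 or OSE tissue 1 (edgeR adjusted p from 0.0825 to 0.151) and in the fit of all libraries (0.471). The oviductal organoids were tightly grouped at 279, 245 and 268 CPM, 2.33-fold above the tissue (log2 1.22 ± 0.22 SE, edgeR adjusted p = 0.000861). Scaled to the epithelial genes, that difference was -0.52 (edgeR adjusted p = 0.0672). OSE line 1 had 2008 CPM, the highest of all libraries, and line 2 had 413 CPM, together 6.47-fold above OSE tissue (log2 2.69 ± 0.63 SE, edgeR adjusted p = 0.0171). Without line 1 the log2 difference was 1.2. Leaving out any single OSE tissue library took the difference of both lines past the threshold (adjusted p from 0.0595 to 0.0934).

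In the oviductal lineage Msln was at 279, 196 and 456 CPM in Cas9-GFP organoids and 45.4, 209 and 342 CPM in clones, the lowest again in clone 1. Neither step passed the test (edgeR adjusted p = 0.489 and 0.787). Tumor values of 171, 302, 212, 44.4, 275 and 112 CPM did not follow the split seen for Wfdc2, Muc1 and Cd24a. Tumors 2 and 5, both low in those genes, had the 2 highest values. Msln was at 423 CPM in T1-mes, 344 in T2-epi, 74 in T3-mes and 259 in T4-epi.

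Folr1, the folate receptor, was the other member higher in OSE tissue. OSE tissue had 80.1, 62.2 and 72.1 CPM, and oviduct tissue 14.6, 6.85 and 56.4 CPM, without overlap (2.89-fold, log2 -1.53 ± 0.42 SE, edgeR adjusted p = 0.00683). DESeq2 gave -1.46 with an adjusted p of 0.136, and the fit of all libraries -1.48 with an edgeR adjusted p of 0.223. Oviduct tissue 3 stood apart from the other 2 oviduct samples, and without it the log2 difference was -2.61 (edgeR adjusted p = 8.57e-07). The oviductal organoids had 17, 16.3 and 13.9 CPM, within the range of the tissue. The OSE lines lay on either side of the oviductal ones, with 0.755 CPM in line 1 (1 count) and 95.1 CPM in line 2. Against line 1 alone the oviductal organoids were higher (log2 4.26), and against line 2 alone they were lower (log2 -2.58).

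In clones, tumor-derived organoids and tumors Folr1 was scarce. Cas9-GFP organoids had 16, 34.8 and 6.43 CPM and clones 0, 3.21 and 10.5 CPM (log2 -1.38 ± 0.70 SE, edgeR adjusted p = 0.557), where the 0 of clone 1 allows up to 34.1 CPM. T1-mes had 0.448, T3-mes 0, T2-epi 0.926 and T4-epi 0.475 CPM. Tumors 3 and 4 had 1.35 and 0.966 CPM, and tumors 1, 2, 5 and 6 had 0. The 6 tumors together gave 5 counts, and Folr1 fell under the filter on low counts in both tumor comparisons. With no filter it was lower in tumors than in oviduct tissue (log2 -5.65 ± 0.91 SE, edgeR adjusted p = 0.000798) and than in clones (log2 -3.73 ± 1.01 SE, adjusted p = 0.0183).

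Mecom, the transcription factor, was again near 0 in OSE tissue, with 0, 1.17 and 0.522 CPM (2 counts in all). Oviduct tissue had 59.9, 38.4 and 41.4 CPM, a ratio of 97.3 (exact 95% interval 26.4 to 811, counting error only; edgeR adjusted p = 1.04e-07). In oviductal organoids it had 52.4, 42.9 and 37.2 CPM, overlapping with the tissue (log2 -0.09 ± 0.25 SE, edgeR adjusted p = 0.81). Scaled to the epithelial genes, it was lower in the organoids (log2 -1.82, edgeR adjusted p = 4.36e-05). OSE line 1 had 47.6 CPM and line 2 only 2.56 CPM. Mecom did not pass the filter between OSE organoids and tissue. With no filter its edgeR adjusted p was 0.0123 there, and the ratio was 40.8 (exact 95% interval 10.9 to 344, counting error only), of which line 1 supplied most counts.

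Along the oviductal lineage Mecom had 44.3, 50.4 and 65.3 CPM in Cas9-GFP organoids and 34.1, 38.5 and 25.2 CPM in clones. The clones were all below the Cas9-GFP libraries, a difference that did not pass the test (log2 -0.74 ± 0.37 SE, edgeR adjusted p = 0.558). T1-mes had 41.7, T3-mes 46.2, T2-epi 51.9 and T4-epi 81.1 CPM. The tumors had 38.6, 49.1, 71.1, 124, 4.19 and 37.8 CPM. Tumor 4, low in Wfdc2, Muc1 and Cd24a, was the highest for Mecom in all 27 libraries, and tumor 5 the lowest tumor.

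The tissue comparison asked how the markers differ between the candidate tissues of origin. All 6 members were called, 4 higher in oviduct (Wfdc2, Muc1, Cd24a and Mecom) and 2 higher in OSE (Folr1 and Msln). Over all genes tested, 26.9% were higher and 24.3% lower in oviduct. Relative to the epithelial genes, whose sum was itself lower in OSE tissue, the order of the tissues was the same for each of the 6. Per 1000 epithelial counts, Wfdc2 had 163 to 224 in oviduct and 8.73 to 19 in OSE tissue, Cd24a 749 to 888 and 28.5 to 60.6. Folr1 had 3.2 to 32.9 in oviduct and 116 to 164 in OSE tissue, and Msln 45.3 to 73 and 301 to 489. The part of granulosa, steroidogenic and stromal cells in these differences was not tested.

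In culture the members were compared with the tissue of the same origin, a step that also changes the mixture of cells. Between oviductal organoids and oviduct tissue 4 of 6 members were called, all higher in culture, against a background of 18.7% higher and 24.2% lower. Scaled to the epithelial genes 4 were called as well, but of these only Wfdc2 was higher, while Cd24a, Mecom and Folr1 (log2 -2.50, edgeR adjusted p = 0.000536) were lower. This scaling moves all genes of a library together, downward where the epithelial sum is high, as in the organoids. The share of all genes called under it is not given here, so these lower calls cannot be read as particular to the members. Between OSE organoids and OSE tissue 4 of 5 tested were called, again all higher, against 14.5% higher and 18.6% lower. The summed epithelial genes moved alongside, to 5654 to 7390 CPM in oviductal and 8410 to 9742 CPM in OSE organoids, while fibroblast markers summed to between 0 and 39.4 CPM in both. Per 1000 epithelial counts, Wfdc2 had 163 to 224 in oviduct tissue and 290 to 424 in its organoids, and 8.73 to 19 in OSE tissue and 325 and 433 in OSE organoids. Scaled to the epithelial genes, it was still higher in oviductal organoids than in tissue (log2 0.90, edgeR adjusted p = 0.00303). Muc1 overlapped in the oviduct (7.31 to 12.2 in tissue, 8.8 to 11.5 in organoids), and Cd24a was lower there (749 to 888 and 377 to 385).

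Between oviductal and OSE organoids none of the 6 members was called by edgeR, where 1 had an unadjusted p under 0.05 and DESeq2 called 1, Msln (log2 -2.19, adjusted p = 0.0215). Only 0.0864% of all genes were higher and 0% lower in this comparison. The OSE lines lay far apart in 4 members. Msln was 2008 and 413 CPM, and line 1 was also high in Muc1 and Mecom and low in Folr1. Leaving out either line sets 1 OSE library against the oviductal lines, whose spread is then the only one in the fit. Without line 1 the difference was negative for Folr1 and positive for Muc1, and without line 2 the reverse.

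The test of the difference itself, oviduct against OSE in organoids minus the same in tissues, passed for 4 of 6 members, all with a smaller or turned difference in organoids. The background was 5% of genes positive and 6.68% negative. For Wfdc2 the difference by origin went from 5.82 in tissues to -0.44 in organoids (interaction -6.22 ± 0.47 SE, edgeR adjusted p = 1.39e-05), and for Cd24a from 6.15 to 0.32 (-5.76 ± 0.40 SE, adjusted p = 9.33e-06). The interactions of Muc1 (-6.67 ± 1.72 SE, edgeR adjusted p = 0.0257) and Mecom (-5.31 ± 1.36 SE, adjusted p = 0.0252) rest on 2 counts each in OSE tissue, and their size depends on the fit's prior count. With a library left out that of Muc1 ran from -7.64 to -2.85. Without OSE line 1, which leaves 1 OSE organoid library, that of Mecom was -2.16. Folr1 (-0.08 ± 1.28 SE) and Msln (-1.37 ± 0.67 SE) did not pass (edgeR adjusted p = 1 and 0.215).

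**Figure D2:**
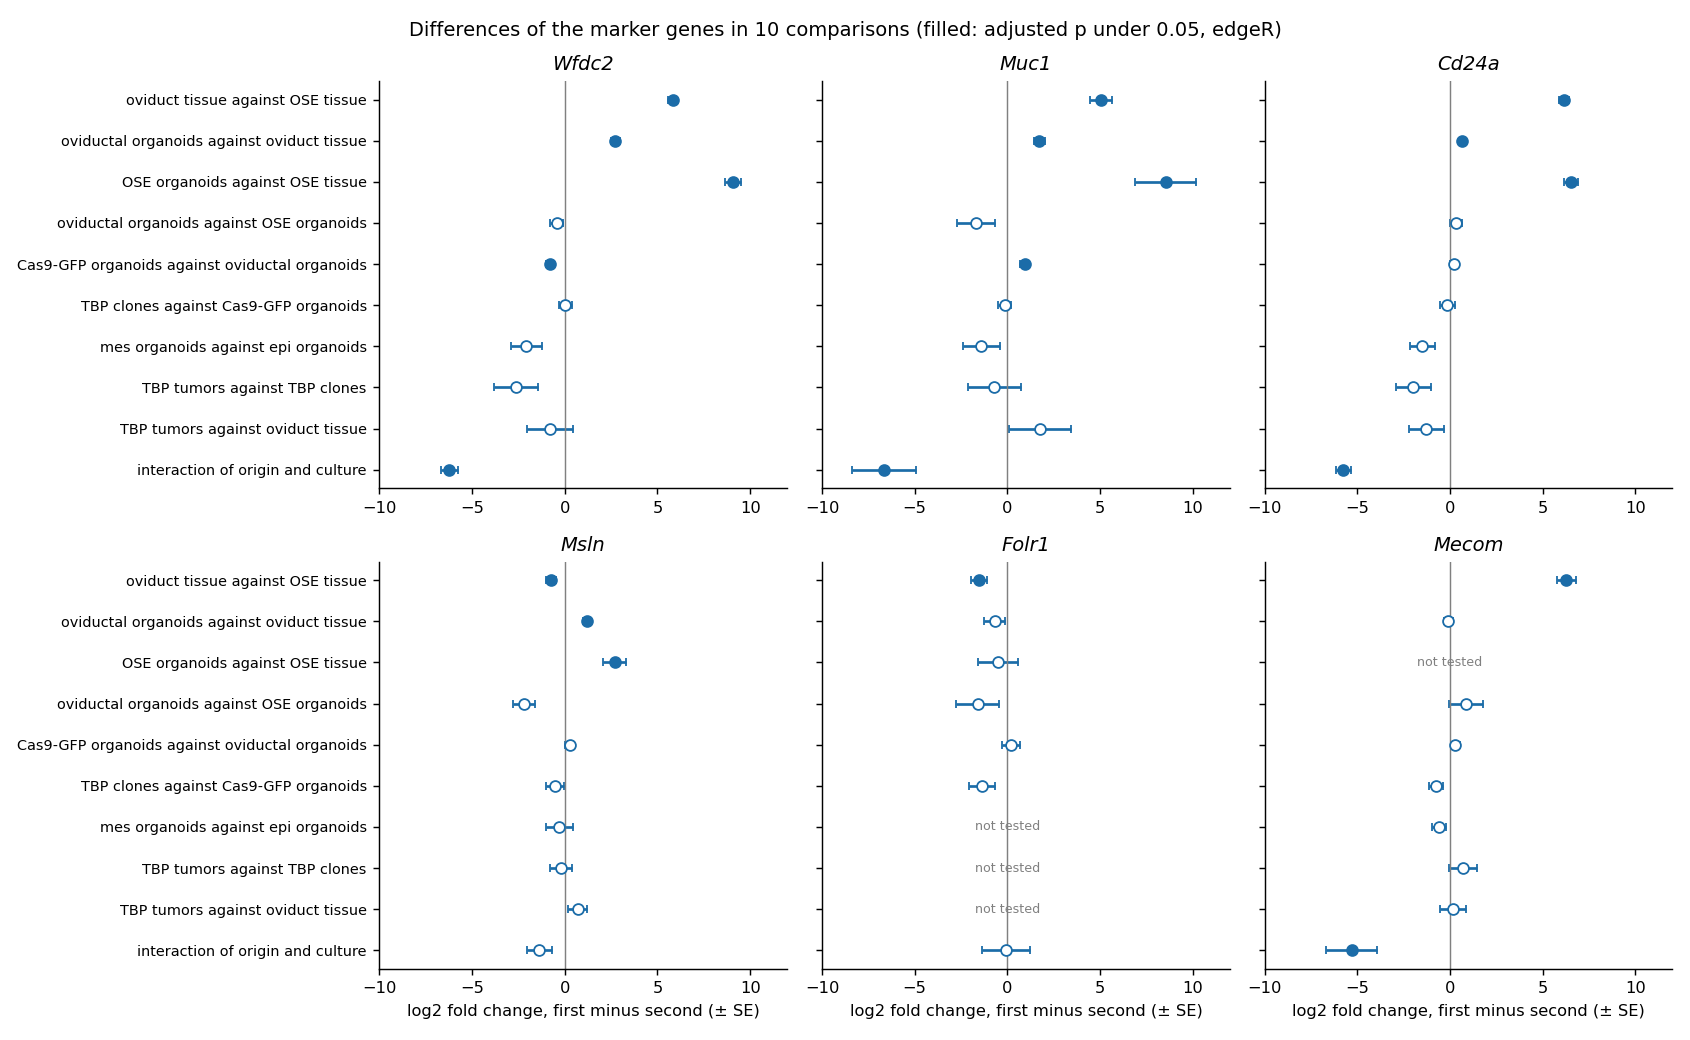
log2 fold change ± SE of each marker gene in 9 pairwise comparisons and the interaction, first group minus second. Filled points have an edgeR adjusted p under 0.05. The called points gather in the tissue and culture comparisons and in the interaction, with none between TBP clones and Cas9-GFP organoids or in the tumor comparisons.

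Before transplantation, Cas9-GFP organoids were compared with wild-type oviductal organoids, and TBP clones with Cas9-GFP organoids. Cas9-GFP against wild-type oviductal organoids gave 1 member higher (Muc1) and 1 lower (Wfdc2), where 13% of all genes were higher and 13.3% lower. Scaled to the epithelial genes, the call of Wfdc2 was lost (log2 -0.24, edgeR adjusted p = 0.407), that of Muc1 held (1.46, adjusted p = 0.000365), and Msln (0.76, adjusted p = 0.0417) and Cd24a (0.73, adjusted p = 0.0133) were called higher. Here too the scaling moves all genes of a library together, and the share of all genes called under it is not given. The strain of the donors and the line cannot be told apart between these groups. TBP clones against Cas9-GFP organoids gave none of 6 by edgeR, by DESeq2 or at an unadjusted p under 0.05, with 0.389% of genes higher and 0.428% lower. The log2 differences ran from -1.38 for Folr1 to 0.03 for Wfdc2. Few genes were called in this fit, which included the shallow clone 1, so the lack of calls does not show a lack of change.

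Tumor-derived organoids of mixed appearance were compared with epithelial ones. T3-mes had the lowest Wfdc2, Msln, Muc1 and Cd24a of the 4 cultures, T1-mes lay between it and the epithelial lines for Wfdc2, Muc1 and Cd24a, and Mecom was lower in both mes cultures. None of the 5 tested members was called by edgeR or DESeq2, 1 (Wfdc2, log2 -2.08 ± 0.84 SE) had an unadjusted p under 0.05, and 1% of all genes were higher and 0.123% lower. Leaving out T1-mes sets T3-mes alone against the epithelial lines. The log2 differences were then -4.06 for Wfdc2, -2.03 for Msln, -4.37 for Muc1 and -2.87 for Cd24a. The summed epithelial genes were 356 CPM in T3-mes and 3549 in T1-mes, against 4594 and 5200 in T2-epi and T4-epi. All 6 fibroblast markers had counts in each of these cultures, and summed to 7319, 3072, 30.6 and 99.2 CPM in that order.

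Relative to the epithelial genes the mes and epi cultures were closer for Wfdc2 and Muc1, and farther apart for Msln and Mecom. Wfdc2 had 242 (T1-mes) and 350 (T3-mes) counts per 1000 epithelial counts, against 409 (T2-epi) and 432 (T4-epi). Muc1 had 27.4 and 18.5 against 27.1 and 28.5, and Cd24a 442 and 1045 against 572 and 537. Msln had 119 and 208 against 75 and 49.7, without overlap. Mecom stood out in T3-mes, with 130 per 1000 against 11.7 in T1-mes and, for the epithelial lines, 11.3 (T2) and 15.6 (T4). Scaled so, the sign of the mes and epi difference turned for Msln (1.39), Mecom (2.38) and Cd24a (0.42), none of which passed the test (edgeR adjusted p from 0.357 to 0.859).

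Between TBP tumors and TBP clones none of the 5 tested members was called by edgeR or DESeq2, and 1 (Wfdc2) had an unadjusted p under 0.05, where 20.1% of all genes were higher and 11.7% lower. Between tumors and oviduct tissue none of 5 was called by edgeR or DESeq2 and none had an unadjusted p under 0.05, where 23.7% were higher and 22.4% lower. Tumors 1 and 3 carried Wfdc2, Muc1 and Cd24a at levels above or near those of oviduct tissue, and the other 4 tumors below it. The highest tumor was 69.2-fold above the lowest for Wfdc2 and 193-fold for Muc1, against 6.79-fold for Msln. The epithelial genes split the same libraries, at 2465 and 3198 CPM in tumors 1 and 3 against 184 to 470 CPM in the others. Epcam was at 201 and 363 CPM in the former, and at 7.9, 13.5, 0 and 1.83 CPM in tumors 2, 4, 5 and 6. Fibroblast markers summed to 9642 to 58150 CPM in the 6 tumors and myeloid markers to 190 to 773 CPM.

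**Figure D3:**
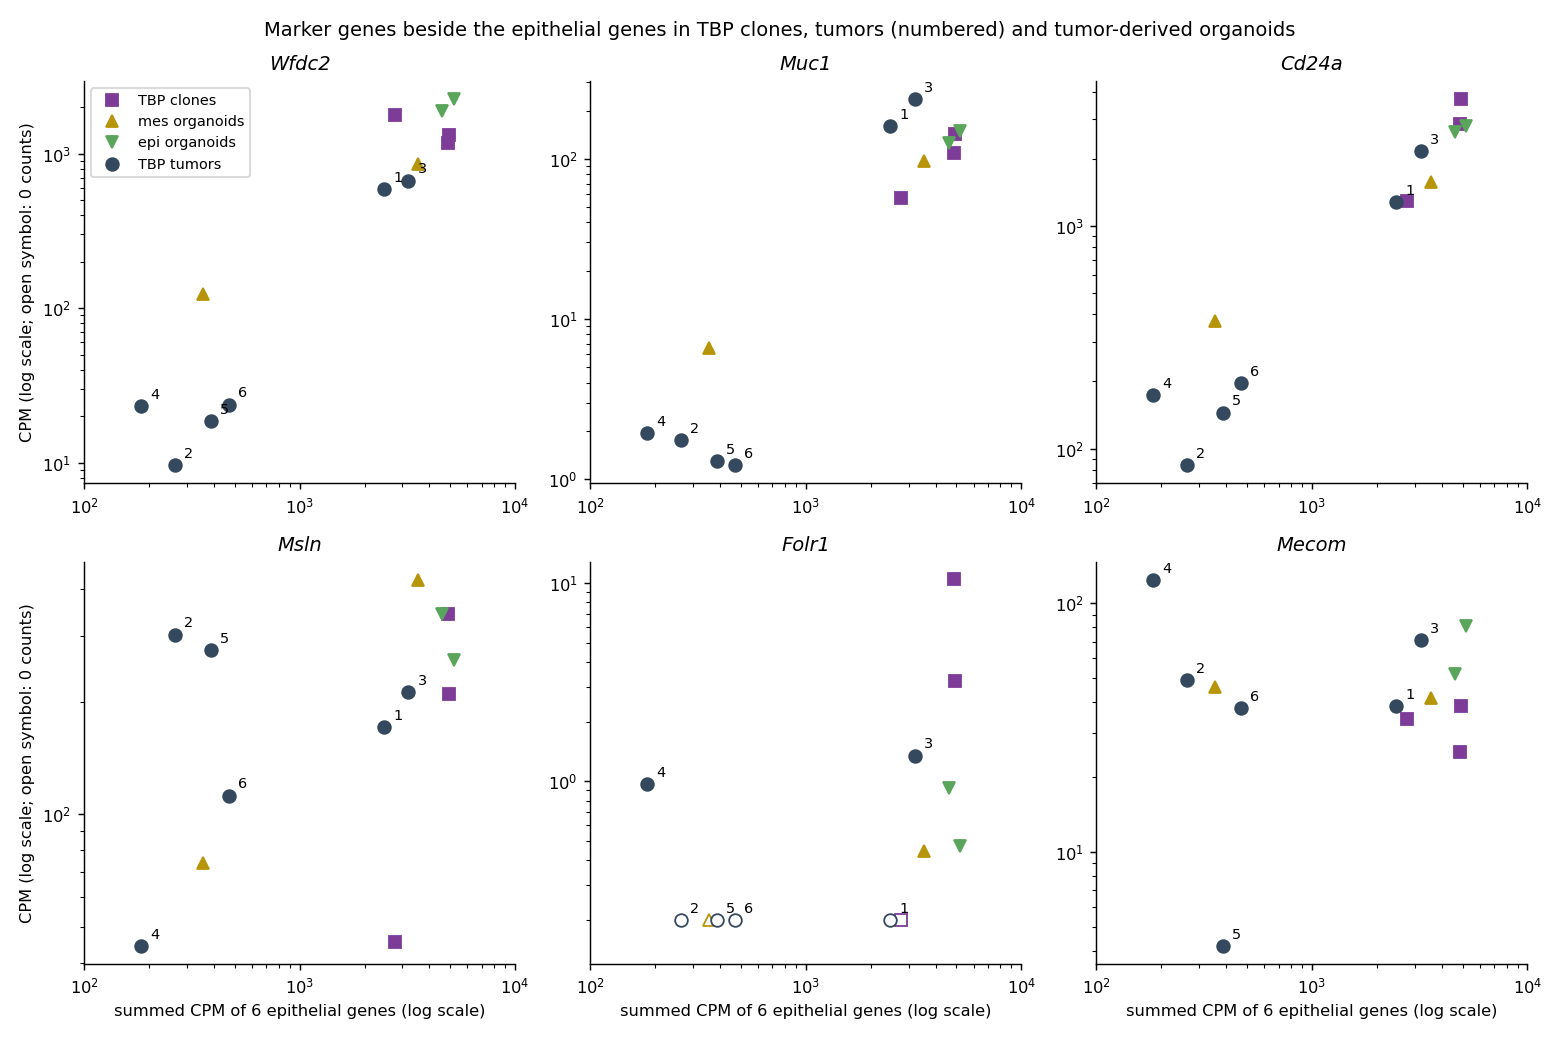
CPM of each marker gene against the summed CPM of Epcam, Cdh1, Krt7, Krt8, Krt18 and Krt19, both on log scales, in TBP clones, tumor-derived organoids and the 6 numbered tumors. Tumors 1 and 3 join the clones at the upper right for Wfdc2, Muc1 and Cd24a, whereas tumors 2 and 5 for Msln and tumor 4 for Mecom lie above tumors 1 and 3 at a low epithelial sum.

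Set against the epithelial genes, the tumors separated the members into 3 patterns. Cd24a was even, with 319 to 942 counts per 1000 epithelial counts in tumors and 467 to 752 in clones. Wfdc2 and Muc1 were still lower in tumors 2, 4, 5 and 6, at 36.5, 126, 48.2 and 50.6 for Wfdc2 against 239 and 209 in tumors 1 and 3 and 241 to 643 in clones. For Muc1 the values were 6.64, 10.5, 3.33 and 2.59 against 65.1 and 73.6, and clones had 20.5 to 29.2. Msln had 1143, 241, 710 and 239 in tumors 2, 4, 5 and 6, above the 16.4 to 69.9 of the clones, while tumors 1 and 3 lay within that range at 69.3 and 66.4. Mecom had 186, 670 and 80.4 in tumors 2, 4 and 6 and 15.6 and 22.2 in tumors 1 and 3. These were above the 5.16 to 12.3 of the clones, and tumor 5 lay within their range at 10.8. The 12.3 was that of clone 1, with 3 Mecom counts, and tumor 5 lay above the 7.85 and 5.16 of clones 2 and 3. With this scaling edgeR called Msln (log2 3.23, adjusted p = 0.0217) and Mecom (4.35, adjusted p = 0.0069) higher in tumors than in clones. It also called Msln higher than in oviduct tissue (2.83, adjusted p = 0.0481). The unscaled log2 differences were -0.22 and 0.71 against clones and 0.69 against oviduct. The scaling moves all genes of a library together, upward where the epithelial sum is low. The share of all genes called under it is not given here, so these calls cannot be read as particular to Msln and Mecom. The scaled values rest on few epithelial counts in tumors 2 and 4 (301 and 191) and in clone 1 (244). Clone 1 gave an end of the clone range for each gene of this paragraph. The part of host and stromal cells in the tumor values was not tested.

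**Figure D4:**
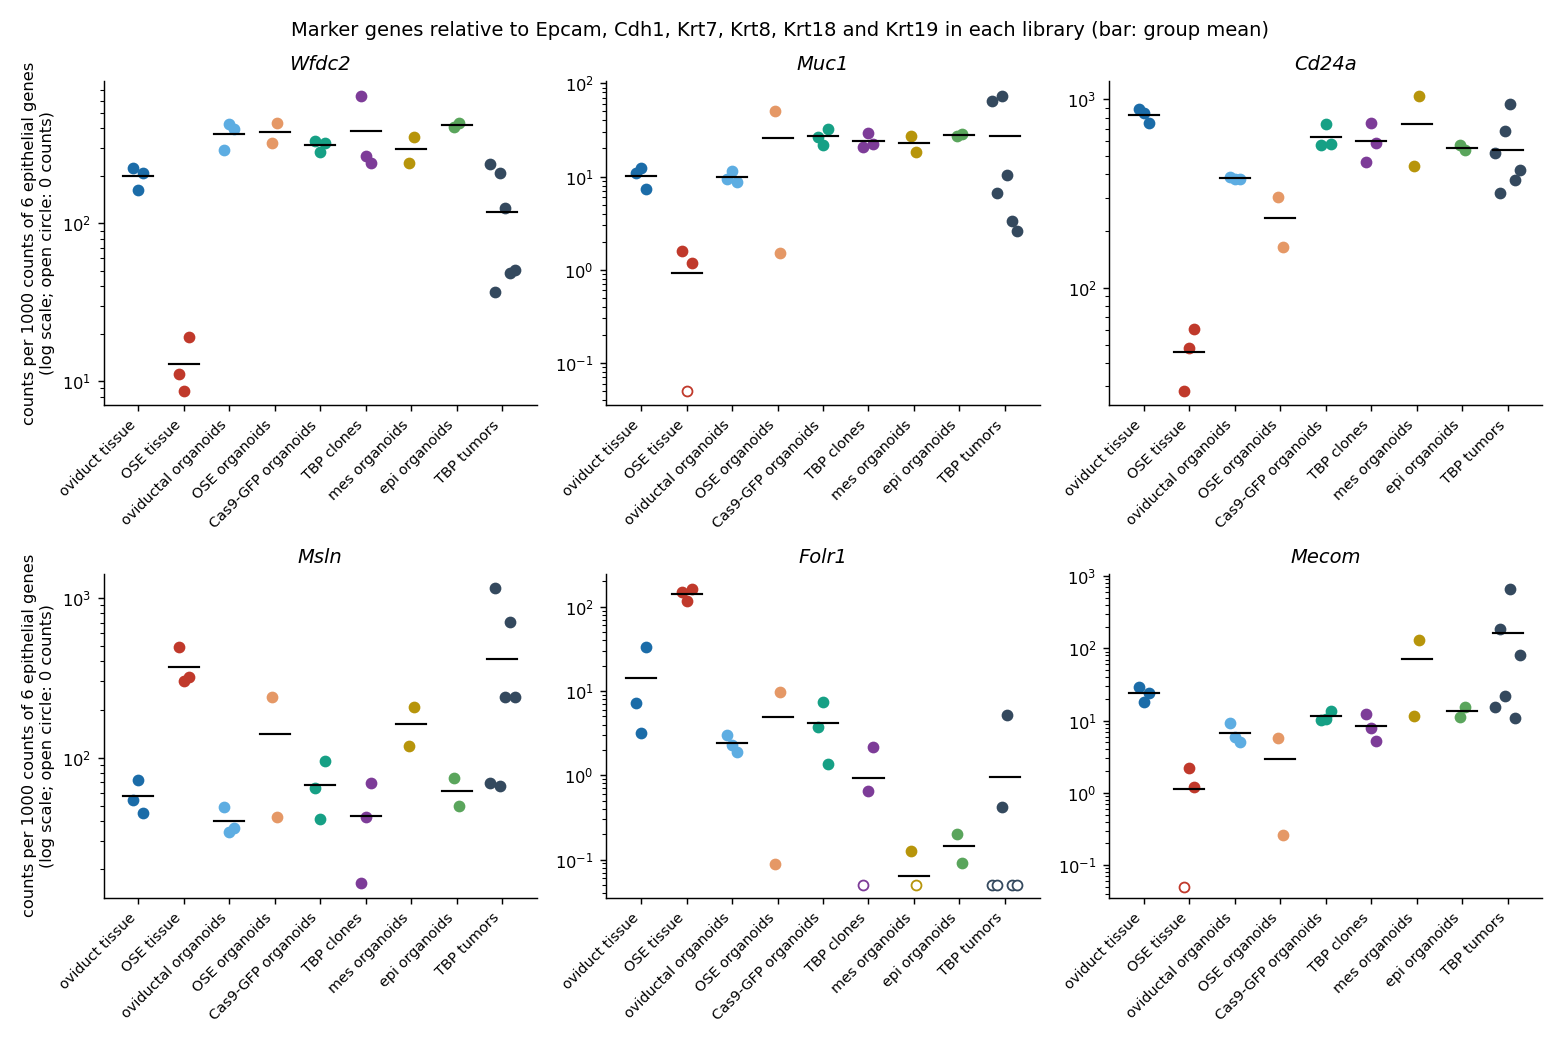
Counts of each marker gene per 1000 counts of the 6 epithelial genes (log scale) in each library, by group, with bars for group means and open circles for libraries with 0 counts. Wfdc2 runs from 241 to 643 and Cd24a from 165 to 1045 across the cultures, Folr1 and Msln are high in OSE tissue, and Msln and Mecom reach their highest values in tumors of low epithelial content. The 643 is that of TBP clone 1, which had 244 epithelial counts.

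The order of the 9 group means differed between members. Wfdc2 ran from 3478 ± 1049 CPM (SD, n = 2) in OSE organoids, through 2532 ± 772 (n = 3) in oviductal organoids and 2061 ± 259 (n = 2) in epi organoids, to 1435 ± 88.8 and 1427 ± 316 in Cas9-GFP organoids and clones (n = 3 each). It ended with 491 ± 519 in mes organoids (n = 2), 388 ± 59.6 in oviduct (n = 3), 222 ± 316 in tumors (n = 6) and 6.34 ± 1.86 in OSE tissue (n = 3). Neighbours in this order did not overlap only between epi and Cas9-GFP organoids, between clones and mes organoids, and between tumors and OSE tissue. For Muc1 and Cd24a the single gap without overlap was the last, above OSE tissue. Folr1 had its only such gap between oviductal organoids (15.7 ± 1.59 CPM, n = 3) and clones (4.57 ± 5.38, n = 3), and all neighbours overlapped for Msln. Mecom had gaps between mes organoids and clones and, last, between OSE organoids and OSE tissue. Depth limits the gaps of Folr1 and Mecom next to the clones. In clone 1 the 0 counts of Folr1 allow up to 34.1 CPM, and Mecom had 3 counts.

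Over the 9 group means of log2 CPM, the members most alike were Wfdc2 and Muc1 (Pearson r = 0.963), Wfdc2 and Cd24a (0.956), and Muc1 and Cd24a (0.954). These correlations describe 9 points that share libraries and depth. Among 9114 genes with a group mean of at least 20 CPM, those nearest to Wfdc2 were Myh14 (0.99), Ceacam1 (0.987) and Grb7 (0.985). Nearest to Muc1 were Oit1 (0.99), Galnt3 (0.985), a transferase that starts mucin-type glycosylation, and Mal2 (0.982). Nearest to Cd24a were Mal2 (0.985), Rab25 (0.98) and Frk (0.975), and to Mecom Slmap (0.952), Akap9 (0.95) and Cmtm4 (0.947). Folr1 had Uqcrc2 (0.948), Kctd14 (0.942) and Arid1b (0.934), and Msln had Rps16 (0.925), Tomm40 (0.921) and Fcf1 (0.911).

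Other genes of the same families and pathways are given by list. Of 30 other ovarian cancer markers with counts, 19 were tested between the tissues, 12 were higher and 2 lower in oviduct (median log2 1.55, 0.00 over all genes). Over all genes 26.9% were higher and 24.3% lower. Klk11, a kallikrein protease, had 71.8 ± 20.7 CPM (SD, n = 3) in oviduct and 0 counts in OSE tissue, at least 99.8-fold higher at a floor of 3 counts over the group. Lcn2, which encodes the iron-scavenging lipocalin-2, had 810 ± 536 CPM against 2.33 ± 1.68. The retinoic acid carrier Crabp2 went the other way, with 6.07 ± 5.6 CPM against 116 ± 5.05, as did Apoa1, the apolipoprotein of high-density lipoprotein (0.914 ± 1.58 against 62.2 ± 3.15). In the interaction of origin and culture 11 of 24 tested markers were negative and 2 positive, beside 6.68% and 5% of all genes (median -3.42, 0.04 over all genes). Among the negative ones were Sox17 (-7.14 ± 0.51 SE, edgeR adjusted p = 1.14e-05) and Lcn2 (-7.36 ± 1.63 SE, 0.0122). Gdf15 (7.80 ± 1.09 SE, edgeR adjusted p = 0.00092) and Crabp2 (5.92 ± 1.15 SE, 0.00648) were the 2 positive ones.

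The same markers were mixed in culture. In oviductal organoids against tissue 7 of 22 were higher and 6 lower, beside 18.7% and 24.2% of all genes (median -0.07, -0.02 over all genes). Osteopontin (Spp1) was at 548 ± 274 CPM against 0.944 ± 0.819 and midkine (Mdk) at 0.728 ± 0.673 against 337 ± 29.7. In OSE organoids against tissue 10 of 21 were higher and 7 lower, beside 14.5% and 18.6% of all genes (median 1.15, -0.06 over all genes). Mal rose from 0.742 ± 0.873 to 194 ± 7.07 CPM (n = 3 and 2), and Lcn2 reached a mean of 2860 CPM with an SD of 3849, so the lines lay far apart. In tumors against clones 4 of 21 were higher and 5 lower, beside 20.1% and 11.7% of all genes (median -0.49, 0.16 over all genes). Pax8, the Müllerian transcription factor, fell from 179 ± 91.5 CPM (n = 3) to 15.1 ± 16.5 (n = 6), and Mal from 117 ± 57.2 to 11.9 ± 16.9. Igfbp2 had 65.7 ± 42.1 CPM in tumors and 0 counts in clones, at least 125-fold higher. Against oviduct tissue 4 of 22 were higher and 7 lower in tumors, beside 23.7% and 22.4% of all genes (median 0.10, 0.08 over all genes). Spp1 was at 1049 ± 436 CPM in tumors.

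Few genes of the WAP family passed the filter. Of 14 members with counts, 5 were tested between the tissues, with 4 higher and 1 lower in oviduct (median log2 2.60), beside 26.9% and 24.3% of all genes. Wfdc18 had 1983 ± 1217 CPM against 1.94 ± 2.15, Wfdc15b 216 ± 28.3 against 0.284 ± 0.492, and Wfdc10 9.08 ± 1.04 against 83.6 ± 9.72. In oviductal organoids 4 of 5 were lower than in tissue, beside 24.2% of all genes (median -4.76, or -4.00 with genes at 0 counts set to their bound), whereas Wfdc2 was higher. Wfdc15b had 7.64 ± 1.51 CPM there, and Wfdc1 had 0 counts against 46.9 ± 8.29 CPM, at least 75.6-fold lower. In OSE organoids 2 of 3 were lower, Wfdc10 at least 93.5-fold, beside 18.6% of all genes lower. Wfdc18 fell from 1297 ± 118 CPM in oviductal to 3.31 ± 2.88 in Cas9-GFP organoids (n = 3 each), and was 72 ± 77.4 CPM in clones (edgeR adjusted p = 0.0266). In tumors 3 of 4 were higher than in clones and 0 lower, beside 20.1% and 11.7% of all genes. Against oviduct 1 of 7 was higher and 4 lower in tumors, beside 23.7% and 22.4% of all genes (median -3.84). Wfdc17 rose to 89.2 ± 52.8 CPM in tumors (n = 6), from 0.551 ± 0.558 in clones and 10.6 ± 3.97 in oviduct. Wfdc18 (11.9 ± 17.6 CPM) and Wfdc15b (7.62 ± 11.8) were lower in tumors than in oviduct.

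Of 13 other mucins and mucin glycosylation genes with counts, few passed the filter. Galnt12 was the single one tested between the tissues and was higher in oviduct (41.7 ± 5.59 against 4.59 ± 2.27 CPM). In oviductal organoids 3 of 5 were higher and 2 lower than in tissue, beside 18.7% and 24.2% of all genes, with Muc20 at 50.4 ± 13.5 CPM against 3.46 ± 2.12. In OSE organoids 2 of 4 were higher and 1 lower, beside 14.5% and 18.6% of all genes. In tumors against clones 2 of 10 were higher and 1 lower (20.1% and 11.7% of all genes), and against oviduct 1 of 4 was lower (22.4%). Of 20 folate genes, 2 of 11 tested were higher and 6 lower in oviduct than in OSE tissue (median -0.57, 0.00 over all genes), beside 26.9% higher and 24.3% lower over all genes. Ggh, which trims folate polyglutamates, had 104 ± 25.4 CPM in oviduct against 48.8 ± 3.14 in OSE tissue. Tumors had Folr2, a folate receptor known from macrophages, at 66.8 ± 35 CPM (n = 6) and clones at 0 counts, at least 134-fold higher, beside the near absence of Folr1. Shmt2, a mitochondrial enzyme of folate metabolism, was at 175 ± 50.7 CPM in tumors, 72.4 ± 34 in clones (edgeR adjusted p = 0.0394) and 34.3 ± 6.67 in oviduct (0.000194). In tumors 3 of 15 folate genes were higher than in clones, beside 20.1% of all genes. Against oviduct 7 of 15 were higher and 3 lower, beside 23.7% and 22.4% of all genes (median 0.90, 0.08 over all genes).

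Of the GPI anchor genes, whose products build and attach the anchor of Cd24a, Msln and Folr1, 4 of 15 tested were higher and 2 lower in oviduct than in OSE tissue (median 0.05, 0.00 over all genes), shares beside the same 26.9% and 24.3%, with Dpm3 at the largest rise (376 ± 42.8 against 143 ± 17.7 CPM). In oviductal organoids 2 of 16 were higher and 5 lower than in tissue, beside 18.7% and 24.2% of all genes. In OSE organoids 2 of 18 were higher and 1 lower, beside 14.5% and 18.6%. Pgap1 had 66.6 ± 23.3 CPM in OSE organoids (n = 2) against 3.63 ± 2.55 in OSE tissue (n = 3). In tumors 1 of 17 was higher and 3 lower than in clones, beside 20.1% and 11.7% of all genes. Of 13 PRDM genes and partners of Mecom, none of 5 tested was called between the tissues by edgeR or DESeq2, and none had an unadjusted p under 0.05. The corepressor Ctbp2, a known partner of EVI1, was 140 ± 26.2 CPM in oviductal organoids and 82.9 ± 3.06 in oviduct (edgeR adjusted p = 0.007), 172 ± 39.5 in OSE organoids and 64.6 ± 11.2 in OSE tissue (0.00691). It was 44.7 ± 8.22 CPM in tumors against 87.2 ± 16.8 in clones (edgeR adjusted p = 0.012). Ctbp1, also of this list, went the other way there (71.1 ± 15.9 against 40.7 ± 6.88 CPM, edgeR adjusted p = 0.0497). Of 6 tested, 1 was higher and 1 lower in tumors than in clones, beside 20.1% and 11.7% of all genes. In oviductal organoids 2 of 6 were higher and 1 lower than in tissue (18.7% and 24.2% of all genes). In OSE organoids 1 of 6 was higher and 2 lower (14.5% and 18.6%). Between oviductal and OSE organoids, edgeR called none of the 59 genes tested from the 6 lists, 14 had an unadjusted p under 0.05, and DESeq2 called 2. Between mes and epi organoids it called none of 66, with 16 at an unadjusted p under 0.05 and 6 called by DESeq2. Between clones and Cas9-GFP organoids Wfdc18 was the only call among 55.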

How the data were processed

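RNA of 27 libraries in 9 groups, held in 11 sample records, was read by CEL-Seq2 on a NextSeq500 (75-bp paired ends). The authors aligned reads to the transcriptome of GRCm38 with BWA, kept uniquely mapped reads in the right direction, and deposited raw read counts per gene without correction for unique molecular identifiers, so amplified copies of a molecule count separately and intervals cover counting error only. The submitters' processing notes also name DESeq2 1.18.0. RNA of tissues and tumors was taken with Trizol and that of organoids with a column kit, a difference that cannot be told apart from the step from tissue to culture. The deposited table has 18306 entries. A spike-in entry with 1 count was left out.

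Libraries were mapped to groups by column names and labels. Totals were 82239 to 4531767 counts, and the floor of a gene without counts was set at 3. In 33 pairs of replicates chi-square per gene was at least 2.53, and no pair was within sampling noise. Groups were compared with the quasi-likelihood F test of edgeR 4.0.16 in R 4.3.3 (TMM, filterByExpr, Benjamini-Hochberg adjustment over all genes tested, threshold 0.05), each fit holding the groups compared, and the interaction holding the 4 wild-type groups. The tests were checked on simulated data. p-values measure the spread between these libraries. Alternatives were DESeq2 1.42.0, RLE size factors, omission of the filter, a fit of all 27 libraries, scaling to 6 epithelial genes, a replicate block, and leaving out each library. CPM use TMM over all libraries and log2 CPM a prior count of 2. Plots used Python 3.11.15 and matplotlib 3.10.9.

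The members and gene lists were chosen with earlier results of these data known. Of the lists, genes were named among the 2 with the largest change in each direction in a comparison, with an adjusted p under 0.05 and a mean of at least 20 CPM, and the 3 genes most like each member by Pearson r over group means. Promoter windows came from RefSeq. Muc16, the excluded OSE line, a further edited gene of the TBP clones and a gene of the lists are not reported here.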

Additional observations from a re-analysis of the deposited data

Results flagged for a closer look

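The difference between oviduct and OSE was not the same in organoids as in tissues for 4 of the 6 marker genes, by the interaction term of the edgeR fit. On the log2 scale the difference in organoids minus that in tissues was -6.22 for Wfdc2, -5.76 for Cd24a, -6.67 for Muc1 and -5.31 for Mecom. For Wfdc2 and Cd24a the call held without any single library. For Muc1 it was lost without 7 of the 11 libraries in turn (edgeR adjusted p at most 0.0801). For Mecom it was lost without 6, among them OSE organoid line 1, without which its interaction was -2.16. Among the 6 tumors, no marker gene had a single library standing apart by the gap to its nearest neighbour over the range (0.625 for 6 samples). This measure takes 1 library at a time and cannot flag 2 that stand apart together. It therefore does not bear on tumors 1 and 3, which stood together above the others for Wfdc2, Muc1 and Cd24a.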

How the results depend on the processing

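Of 297 values of single members under other settings, 266 kept their direction and their side of the threshold, 13 lost the call, 9 gained one and 9 turned sign. Of 374 values with a library left out, 315, 26, 13 and 20 did so. The number of members called fell from 6 to 3 between the tissues, from 4 to 0 between oviductal organoids and tissue and from 2 to 0 between Cas9-GFP and oviductal organoids in the fit of all 27 libraries. That fit called 3 members between tumors and clones and 1 between tumors and oviduct, where the pairwise fits called 0. DESeq2 called 1 between oviductal and OSE organoids. With no filter 1 member was called in either tumor comparison, and with scaling to epithelial genes 2 against clones and 1 against oviduct. The shares of all genes called under these settings are not given here, so these counts cannot be set beside them. The cause was not tested.

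Scaling to epithelial genes turned Msln (-0.52), Muc1 (-0.04) and Cd24a (-1.12) between oviductal organoids and oviduct tissue, Msln (1.39), Mecom (2.38) and Cd24a (0.42) between mes and epi organoids, and Msln (3.23) and Muc1 (0.22) between tumors and clones. In the fit of all libraries Wfdc2 turned to -0.01 between clones and Cas9-GFP organoids.

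With a library left out, the members called ranged from 4 to 6 between the tissues, 2 to 6 between OSE organoids and tissue, 0 to 3 between oviductal and OSE organoids, 1 to 2 between Cas9-GFP and oviductal organoids, 0 to 4 between mes and epi organoids, 0 to 2 between tumors and clones, 0 to 1 between tumors and oviduct, and 2 to 6 in the interaction. The count for oviductal organoids against tissue was 4, and that for clones against Cas9-GFP organoids 0, with any library left out. Where a library left out leaves 1 in a group, as for OSE, mes and epi organoids, the spread comes from the other groups alone. Such counts do not describe the group. Signs turned with a library left out for Folr1 and Mecom between oviductal organoids and tissue (-1.08 to 0.50 and -0.22 to 0.16), Folr1 between OSE organoids and tissue (-6.39 to 0.45), and Folr1, Muc1 and Mecom between oviductal and OSE organoids (-2.58 to 4.26, -2.65 to 2.17 and -0.09 to 4.09). They did so for Folr1 and Msln between Cas9-GFP and oviductal organoids (-0.45 to 0.65 and -0.12 to 0.49), Wfdc2 and Cd24a between clones and Cas9-GFP organoids (-0.23 to 0.15 and -0.45 to 0.14) and Msln between mes and epi organoids (-2.03 to 0.47). The same held for Msln between tumors and clones (-0.62 to 0.39), Mecom between tumors and oviduct (-0.23 to 0.44), and Folr1 and Msln in the interaction (-1.0 to 5.82 and -2.10 to 0.16).

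Library numbers gave no sign of pairing: deviations of same-numbered libraries correlated between -0.0411 and 0.0917. T1-mes and T2-epi, which came from the same animal, are paired by design, and their deviations correlated at 0.0716. With 2 libraries in each group the deviations mirror each other, so T3-mes and T4-epi have the same value by construction. It therefore cannot measure the pairing of T1-mes with T2-epi. With a replicate block 3 members were called between OSE organoids and tissue in place of 4, Msln being lost (log2 2.16, adjusted p = 0.101), and the other counts were equal to those without it. Depth limits the values of TBP clone 1, where a count of 0 allows up to 34.1 CPM, and those of Muc1 and Mecom in OSE tissue, which had 2 counts each.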
